A study of Mus musculus with 23 samples.

Results

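Potassium channel genes of mouse retinal organoids are described here. They are 92 protein-coding genes, of 52143 genes measured, with symbols that begin with Kcna to Kcnv followed by a number, or that name the Kvβ, BK, BKβ, KChIP and SK families, on the primary chromosomes. A further gene of these families is not used here. They fall into 20 subfamilies: 30 genes for voltage-gated (Kv, EAG and Kv7) pore subunits, 10 for silent Kv subunits, 8 for calcium- or sodium-activated channels, 14 for inward rectifiers (Kir), 14 for tandem-pore-domain leak channels (K2P) and 16 for auxiliary subunits. A count was present for 85 to 88 of the 92 in each of the 12 more deeply sequenced libraries.

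Potassium channels are membrane pores through which potassium leaves the cell, which sets the resting potential and ends electrical responses. Voltage-gated channels are built from pore subunits that open on depolarization, and silent subunits form no channel alone but join Kv2 subunits and change their gating. In photoreceptors, the silent subunit Kv8.2 (Kcnv2) is part of the channel that carries a large inner segment current and shapes the light response, and loss of human KCNV2 causes a retinal dystrophy.

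The organoids were grown from 1 clone of wild-type Nrl-GFP induced pluripotent stem cells, reprogrammed from mouse embryonic fibroblasts; Nrl is a rod transcription factor and its reporter marks rods. From day 10 the medium held docosahexaenoic acid (DHA, an omega-3 fatty acid) or linoleic acid (LA, an omega-6 fatty acid), each at 26 µM and carried on bovine serum albumin (BSA); control cultures received the BSA carrier without fatty acid. From day 26 some cultures also received fibroblast growth factor 1 (FGF1) at 200 ng/ml, and all cultures were given a medium enriched with B27, amino acids and serum. RNA of the neural retina, dissected from 12 organoids per sample, was sequenced as directional poly(A) libraries. There were 2 DHA, 3 LA and 3 BSA libraries at day 32 with FGF1, 3 libraries of each medium at day 32 without FGF1, and 2 of each medium at day 26, which the labels call biological replicates. FGF1-treated organoids at day 32 therefore differed from those at day 26 in age, in the enriched medium and in FGF1, and these cannot be told apart.

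The 23 libraries fell into sets that the labels do not name. Total counts were 16029580 to 20510550 in 12 deeper libraries (replicates numbered 1 or 2 of the FGF1-treated groups, and all 6 of day 26) and 10405663 to 11888224 in the other 11, all of day 32. The authors left 5 of the 11 shallower libraries (replicate 1 of each group without FGF1, and replicate 3 of LA with FGF1 and of BSA with FGF1) out of their normalized table. Those 5 also held Y-linked and imprinted transcripts: Eif2s3y stood at 29.9 to 69.8 CPM in them against at most 0.787 CPM in the other 18, and Meg3 at 139 to 428 CPM against at most 7.53 CPM, although the labels name 1 clone for all. Every comparison below was made inside a set or with the set as a term. Every rod, bipolar, amacrine and Müller glia marker of the fixed lists reached 1 CPM in at least 1 library of each set, while 2 of the 7 pigment epithelium markers (Rpe65 and Best1) were below 1 CPM in all libraries; the other pigment markers were present in some, and the list summed to 1.84 to 305 CPM over the libraries.

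Promoter windows from RefSeq (GRCm38.p6, 250 bases before to 50 bases after the annotated start) were available for 67 of the 92 genes, in 92 windows. They were searched on both strands for TAATCC (reverse complement GGATTA), the core of the sequence bound by the photoreceptor homeobox factors Crx and Otx2. A match was found in 2 of the 92 windows, those of Kcng4 and Kcnj9, which is 2.17% against 7.06% of all 32851 windows. Kcnv2 is among the genes without a window, so its promoter was not searched. TGCTGA (reverse complement TCAGCA), the core sequence bound by Nrl, was in 17.4% of the channel gene windows against 19.5% of all. The windows of Kcng4 and Kcnj9 are shown because both genes were higher at day 32 with FGF1 and hold TAATCC, with the match in capitals, and that of Kcnma1 because its rise was the most stable and its window holds no match. The Kcng4 window is chr8:119635631-119635930 on the minus strand with the match at position −5 from the start, the Kcnj9 window is chr1:172329273-172329572 on the minus strand with the match at −97, and the Kcnma1 window is chr14:24004156-24004455 on the minus strand. Each is written 5′ to 3′.
Kcng4: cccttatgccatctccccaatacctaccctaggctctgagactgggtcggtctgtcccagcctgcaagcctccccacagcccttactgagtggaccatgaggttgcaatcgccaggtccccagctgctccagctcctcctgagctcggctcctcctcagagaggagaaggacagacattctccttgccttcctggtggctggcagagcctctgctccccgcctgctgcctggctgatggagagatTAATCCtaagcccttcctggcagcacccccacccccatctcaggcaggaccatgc
Kcnj9: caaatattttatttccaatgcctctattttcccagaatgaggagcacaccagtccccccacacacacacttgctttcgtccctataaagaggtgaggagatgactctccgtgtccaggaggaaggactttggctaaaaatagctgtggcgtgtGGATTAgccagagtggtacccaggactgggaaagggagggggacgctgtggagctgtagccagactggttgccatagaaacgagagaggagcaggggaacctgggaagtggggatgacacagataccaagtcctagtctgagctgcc
Kcnma1: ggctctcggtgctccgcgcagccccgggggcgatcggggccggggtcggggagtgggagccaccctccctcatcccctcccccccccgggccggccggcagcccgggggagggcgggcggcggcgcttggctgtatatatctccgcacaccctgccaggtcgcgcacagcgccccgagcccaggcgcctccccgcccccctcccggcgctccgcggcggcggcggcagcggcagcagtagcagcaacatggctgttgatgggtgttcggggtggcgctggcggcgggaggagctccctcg

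Per kilobase of transcript, which lets genes be compared with each other, the highest levels at day 32 with FGF1 in the deeper libraries included Kcnv2 (median 37.8 CPM per kb), the cytoplasmic Kvβ2 subunit gene Kcnab2 (34.9) and Kcne2 (29.3), a single-span auxiliary subunit. At day 26 the highest medians were those of Kcne2 (69.5 CPM per kb), Kcnv2 (26.0), the KChIP gene Kcnip1 (22.5) and the Kv1.5 gene Kcna5 (20.4). In the kept shallower libraries at day 32 without FGF1, Kcnv2 led with 82.2 CPM per kb, ahead of Kcne2 (35.5). Pore subunits of the Kv class held a median of 40.9% of the 92 genes' summed CPM per kb at day 32 with FGF1 against 39.0% at day 26, silent subunits 10.7% against 7.72%, Kir 5.88% against 3.41%, and auxiliary subunits 30.0% against 39.2%. Summed auxiliary levels overlapped, at 102 to 167 CPM per kb against 135 to 167, while those of the other classes named here did not. The auxiliary sum includes Kcne2, at 29.3 against 69.5 CPM per kb, which was not called and split by replicate number (below).

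**Figure D1:**
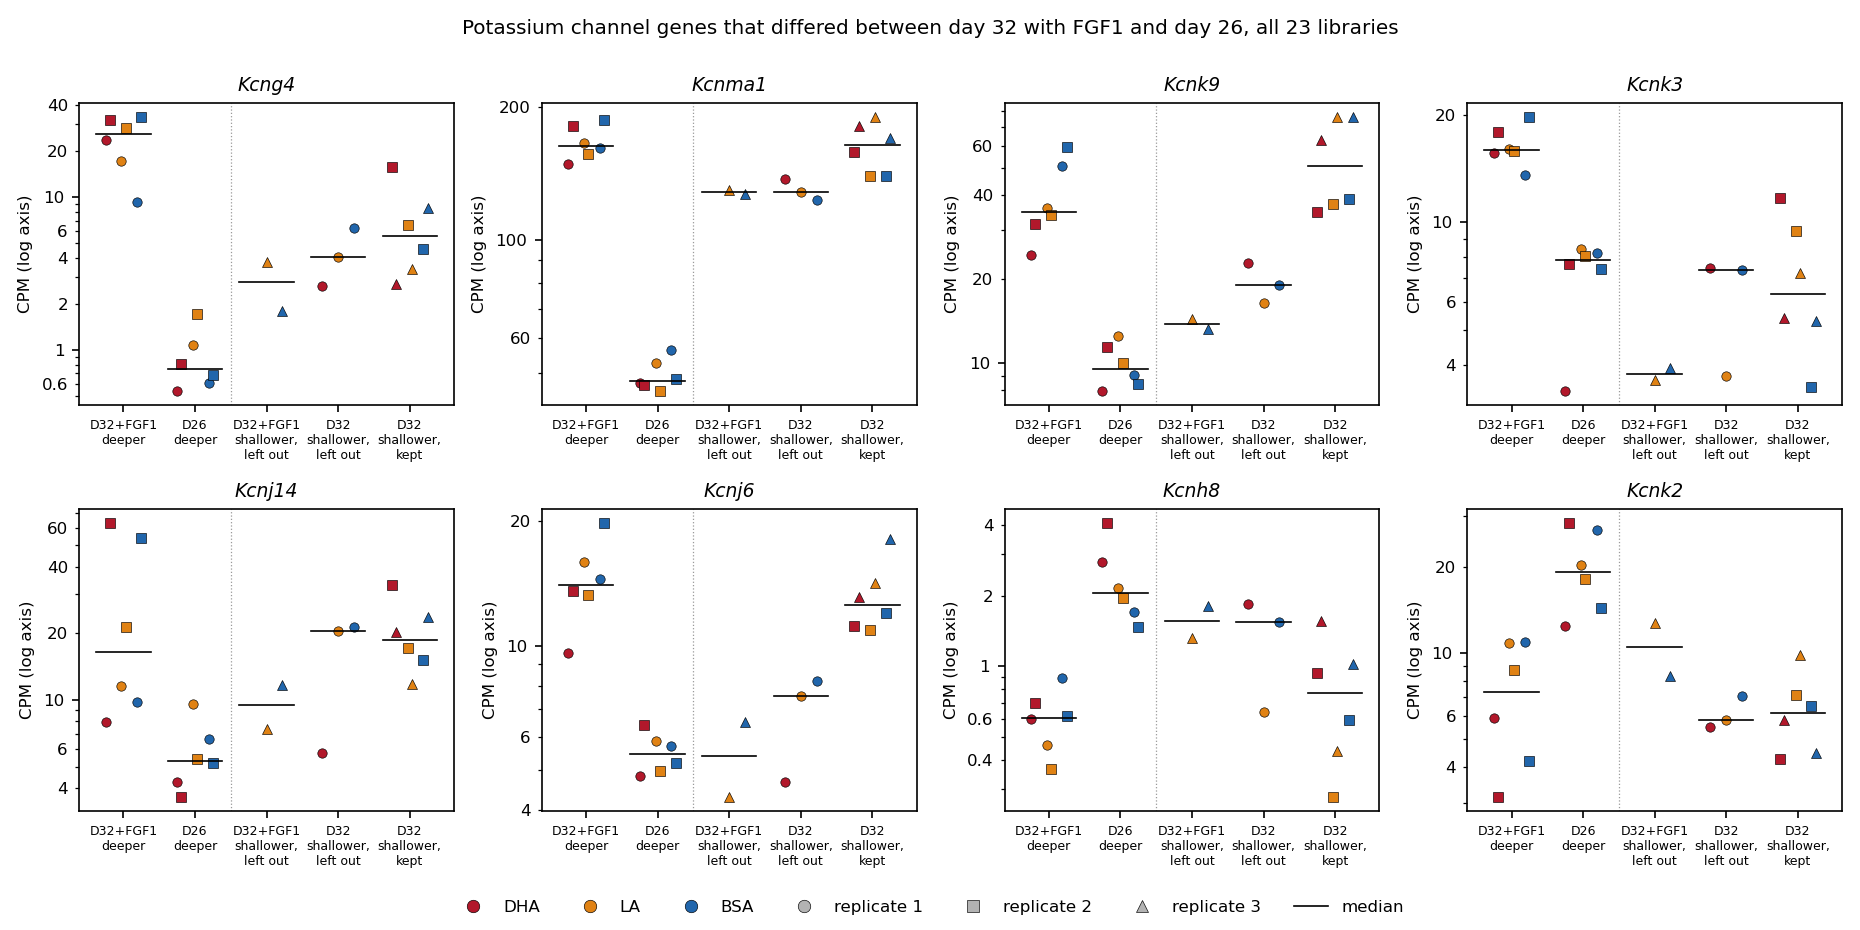
TMM-scaled CPM (log axes) of 8 potassium channel genes in each of the 23 libraries, by day, FGF1 and library set, with colours for medium, shapes for replicate number and a bar at the median. In the deeper libraries, all 6 of day 32 with FGF1 lie above all 6 of day 26 for Kcng4, Kcnma1, Kcnk9, Kcnk3 and Kcnj6. For Kcnh8 and Kcnk2 they lie wholly below.

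Between day 32 with FGF1 and day 26 in the deeper libraries, the silent subunit gene Kcng4, the BK gene Kcnma1, the leak channel gene Kcnk9 and the Kir3 genes rose, while the EAG-type genes Kcnh4 and Kcnh8 and the leak channel genes Kcnk2 and Kcnk10 fell. Of the 92 genes, 79 passed the filter on low counts and 41 were called (26 higher, 15 lower) at an adjusted p under 0.05, against 28.7% of the 20111 genes tested (5773 genes: 14.6% higher and 14.1% lower). The median log2 difference was 0.22 over the 79 and 0.00 over all genes tested. The 13 genes that did not pass the filter (Kcna10, Kcne3, Kcne4, Kcnj1, Kcnj8, Kcnk7, Kcnk12, Kcnk15, Kcnk16, Kcnk18, Kcnmb3, Kcns3 and Kcnv1) reached at most 1.76 CPM in any library. In bulk RNA of this kind, more cells of a type and more RNA per cell cannot be told apart: summed rod marker levels were 4337 to 8142 CPM at day 32 with FGF1 against 1873 to 3178 CPM at day 26, with 5 of 6 rod markers, 4 of 6 bipolar, 4 of 6 Müller glia and 2 of 4 horizontal cell markers called higher. Called lower were 3 of 6 cone, 3 of 6 amacrine, 5 of 6 progenitor, 3 of 5 pigment epithelium, 1 of 6 bipolar and 1 of 4 horizontal cell markers, 1 progenitor marker was higher, and 1 of 5 ganglion cell markers moved each way. The summed bipolar markers had a median of 926 CPM at day 32 with FGF1 and 940 CPM at day 26. The part of cell composition in the channel differences was not tested.

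Among silent subunit genes, Kcnv2 and Kcng4 were higher. Kcnv2 was at 159 CPM at the lowest, 193 at the median and 259 at the highest over the 6 libraries of day 32 with FGF1, against 100, 133 and 156 CPM over the 6 of day 26. Every library of day 32 with FGF1 lay above all of day 26, though the highest at day 26 and the lowest with FGF1 were close, and the log2 difference was 0.65 (SE 0.08, adjusted p = 0.000151). Kcng4, which encodes the silent subunit Kv6.4, had the largest rise: 9.33, 26.1 and 33.7 CPM against 0.537, 0.743 and 1.70 CPM (log2 difference 4.83, SE 0.34, adjusted p = 3.29e-06). Its level with FGF1 split by replicate number, with 9.33 to 23.6 CPM in replicates 1 and 28.5 to 33.7 CPM in replicates 2, all above day 26. Among the other silent genes Kcng2 was called higher (1.99, adjusted p = 0.0410) and Kcng3 lower (−1.75, adjusted p = 0.0259), both at under 2 CPM in every deeper library. Kcnb2, which encodes a Kv2 pore subunit, was lower at 9.15, 10.9 and 13.9 CPM against 11.8, 14.3 and 21.03 CPM (log2 difference −0.44, adjusted p = 0.0286), with overlap between the groups.

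Among the remaining voltage-gated pore genes, members of the same subfamily moved in opposite directions in EAG and in Kv1. In the EAG subfamily 3 of 8 genes were higher and 3 lower, beside 14.6% higher and 14.1% lower of all genes tested. Kcnh1 (Kv10.1, the first ether-à-go-go channel) was at 4.86, 5.27 and 6.91 CPM at day 32 with FGF1 against 1.45, 1.92 and 2.36 CPM at day 26 (log2 difference 1.51, adjusted p = 9.49e-05). Its close relative Kcnh5 (Kv10.2) was at 9.43, 13.9 and 18.3 CPM against 5.48, 6.90 and 8.71 CPM (1.02, adjusted p = 0.00117), and Kcnh6 also rose (0.95, adjusted p = 0.00447). The ELK-type genes Kcnh4 and Kcnh8 lay lower without overlap: Kcnh4 at 0.697, 1.91 and 2.53 CPM against 4.80, 7.93 and 10.5 CPM (−2.12, adjusted p = 0.000224), and Kcnh8 at 0.367, 0.606 and 0.891 CPM against 1.47, 2.06 and 4.07 CPM (−1.90, adjusted p = 0.000126). Kcnh7 was lower by a smaller step (−0.44, adjusted p = 0.0212). Kcnh2, the hERG channel gene, was not called at 34.8, 49.5 and 50.7 CPM against 42.8, 49.1 and 63.9 CPM (−0.08, 95% interval −0.34 to 0.18).

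Kcnc1 encodes one of the fast Kv3 channels, which repolarize neurons that fire rapidly. It had 70.3, 94.6 and 102 CPM at day 32 with FGF1 against 68.4, 84.2 and 91.4 CPM at day 26 and was not called (log2 difference 0.13, 95% interval −0.11 to 0.37). The A-type Kv4 gene Kcnd2 was higher at 0.929, 1.89 and 4.14 CPM against 0.484, 0.871 and 2.21 CPM (1.23, adjusted p = 0.00716), with overlap, and so was Kcnd1 (0.62, adjusted p = 0.0127). Kcnd3, the most abundant Kv4 gene, was not called (0.09, 95% interval −0.17 to 0.35). In the Kv1 delayed-rectifier subfamily Kcna1 (0.75, adjusted p = 0.00204) and Kcna2 (0.47, adjusted p = 0.00471) were higher and Kcna5 lower, at 23.1, 32.1 and 46.2 CPM against 36.2, 58.3 and 86.4 CPM (−0.73, adjusted p = 0.0166).

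**Figure D2:**
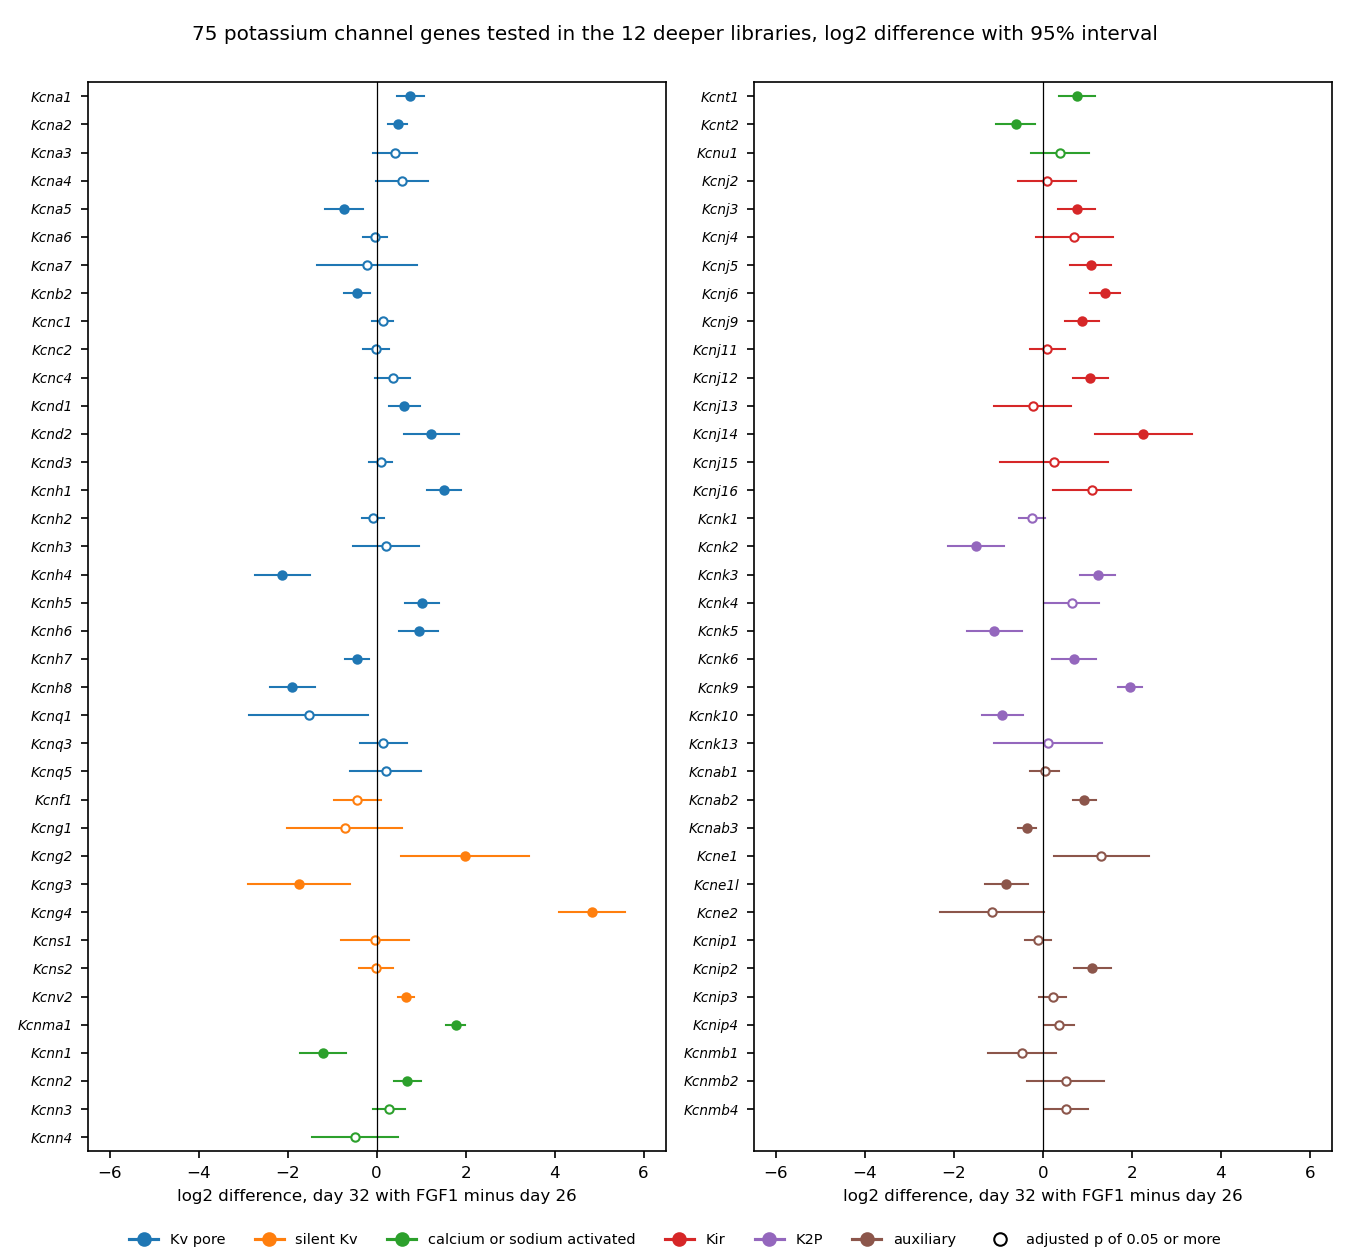
Log2 difference of day 32 with FGF1 minus day 26 (x axis) for 75 of the 79 potassium channel genes tested in the 12 deeper libraries, with 95% intervals, coloured by class. Filled points have an adjusted p under 0.05, and open points do not. Kcng4 stands farthest to the right at 4.83, and 6 of the 12 Kir genes lie to the right with filled points and 0 to the left. Of all genes tested, 14.6% were called higher and 14.1% lower.

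The BK channel, opened by calcium together with voltage, was higher in each medium. Kcnma1, its pore gene, was at 148, 164 and 188 CPM at day 32 with FGF1 against 45.6, 48.0 and 56.3 CPM at day 26. The groups lay far apart compared with their spread, and the log2 difference was 1.77 (SE 0.10, adjusted p = 5.60e-07). None of the 3 BKβ genes tested was called, and Kcnmb4, which encodes the neuronal β4 subunit, had 7.14, 11.05 and 15.9 CPM against 5.43, 7.51 and 12.1 CPM (0.53, adjusted p = 0.0922). Among small-conductance channels, opened by calcium alone, Kcnn2 was higher (0.68, adjusted p = 0.00359) and Kcnn1 lower, at 1.92, 3.51 and 4.71 CPM against 6.39, 7.05 and 13.1 CPM (−1.21, adjusted p = 0.00288). The sodium-activated Slo2 genes also split, with Kcnt1 higher (0.77, adjusted p = 0.00866) and Kcnt2 lower (−0.61, adjusted p = 0.0418).

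Inward rectifiers, which pass current best near rest, were called in 1 direction. Of 12 Kir genes tested, 6 were higher and 0 lower, beside 14.6% higher and 14.1% lower of all genes tested. The median log2 difference was 0.82 for Kir against 0.00 over all genes tested. Kcnj3, Kcnj5, Kcnj6 and Kcnj9, which encode the G-protein-gated Kir3 channels, were all 4 called higher, by 0.76, 1.07, 1.40 and 0.88 on the log2 scale (adjusted p = 0.0106, 0.00266, 5.59e-05 and 0.00314). Kcnj6 was at 9.58, 14.1 and 19.8 CPM against 4.84, 5.45 and 6.43 CPM, without overlap. Kcnj12 (Kir2.2) was higher at 3.37, 4.81 and 5.10 CPM against 1.68, 2.02 and 3.00 CPM (1.07, adjusted p = 0.00112). Kcnj14 (Kir2.4) was at 7.99, 16.4 and 62.8 CPM against 3.64, 5.30 and 9.55 CPM (2.26, SE 0.50, adjusted p = 0.00564). Its level with FGF1 split by replicate number, with 7.99, 11.6 and 9.80 CPM in replicates 1 of DHA, LA and BSA and 62.8, 21.2 and 54.0 CPM in replicates 2. The pigment epithelium channel gene Kcnj13 (Kir7.1) stayed at 0.397 to 1.94 CPM against 0.375 to 2.25 CPM and was not called (−0.23, 95% interval −1.11 to 0.64).

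Leak channel (K2P) genes, which set the resting conductance, were called in both directions (3 higher and 3 lower of 9 tested). Of all genes tested, 14.6% were higher and 14.1% lower. Kcnk9 (TASK-3) was at 24.5, 35.0 and 59.6 CPM at day 32 with FGF1 against 7.95, 9.53 and 12.5 CPM at day 26 (log2 difference 1.96, SE 0.13, adjusted p = 1.89e-06). Its relative Kcnk3 (TASK-1) was at 13.6, 15.9 and 19.7 CPM against 3.39, 7.87 and 8.42 CPM (1.23, adjusted p = 0.000430), also without overlap, and Kcnk6 was called at a lower level (0.70, adjusted p = 0.0385). The mechanosensitive TREK-type genes went the other way: Kcnk2 was at 3.14, 7.31 and 10.9 CPM against 12.4, 19.2 and 28.4 CPM (−1.505, adjusted p = 0.00252), and Kcnk10 was lower by 0.91 on the log2 scale (−0.91, adjusted p = 0.00789). Kcnk5, below 1.2 CPM throughout the deeper libraries, was lower too (−1.10, adjusted p = 0.0130). Kcnk1, the most abundant K2P gene per kilobase, was not called (−0.23, 95% interval −0.53 to 0.06).

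Of the 13 auxiliary subunit genes tested, 2 were higher and 2 lower, near the 14.6% higher and 14.1% lower of all genes tested. Kcnab2 was at 78.9, 108 and 141 CPM against 47.5, 56.0 and 73.8 CPM (log2 difference 0.93, adjusted p = 0.000179), and Kcnip2, a calcium-binding partner of Kv4 channels, was at 8.89, 9.70 and 14.2 CPM against 3.12, 4.83 and 6.54 CPM (1.12, adjusted p = 0.00119). Kcnab3 (−0.36, adjusted p = 0.0148) and Kcne1l (−0.82, adjusted p = 0.0157) were lower, and Kcnip1 was not called (−0.11, 95% interval −0.40 to 0.18). Kcne2, whose product modifies several Kv channels, was at 9.46, 49.2 and 94.2 CPM against 91.7, 117 and 131 CPM and was not called (−1.15, adjusted p = 0.132). With FGF1 it stood at 79.3 to 94.2 CPM in the 3 replicates 1 and at 9.46 to 19.2 CPM in the 3 replicates 2, with no library in between. Of the 79 channel genes tested, 18 (22.8%) had no overlap between these replicate numbers in the FGF1-treated deeper libraries, against 25.1% of all 20111 genes tested, so such splits were about as frequent in the whole table. Ttr, the transthyretin gene, a marker of pigment epithelium and choroid plexus, was at 0.298, 177 and 127 CPM in replicates 1 of DHA, LA and BSA and at 0.407, 124 and 1.54 CPM in replicates 2. It was far lower in replicate 2 of BSA only, and its part in the split of Kcne2 was not tested.

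Of the 41 genes called, 32 were called whichever deeper library was left out, and 25 of them also under all 7 other settings of scaling, filter, test and block. These 25 include Kcng4, Kcnma1, Kcnk9, Kcnv2, Kcnh1, Kcnj6, Kcnj14, Kcnh4, Kcnh8 and Kcnk2. The same counts over all called genes are not given, so the counts of 32 and 25 have no background. A list of 23 partners of the current (pumps, exchangers, HCN channels and associated proteins) was chosen with earlier results of these data known. Beside 14.6% higher and 14.1% lower of all 20111 genes tested, 12 of these partner genes were higher and 1 lower of 21 tested. They include Slc24a1, the rod sodium, calcium and potassium exchanger (6.14, adjusted p = 9.94e-08), and the sodium pump beta subunit genes Atp1b1 (0.74) and Atp1b2 (0.85).

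Taken by medium, the difference between day 32 with FGF1 and day 26 was called for 21 potassium channel genes in DHA (12 higher, 9 lower), 10 in LA (9 higher, 1 lower) and 16 in BSA (15 higher, 1 lower). Over all genes tested, 10.4% were called in DHA (6.08% higher, 4.28% lower), 5.16% in LA (3.34% higher, 1.81% lower) and 6.83% in BSA (4.25% higher, 2.58% lower). The counts depended on single libraries. In DHA the count was 9 without replicate 2 with FGF1 and 10 without replicate 2 of day 26. In LA it was 4 without either library with FGF1, and 6 and 5 without replicates 1 and 2 of day 26. In BSA it was 7 without replicate 2 with FGF1, and 7 and 3 without replicates 1 and 2 of day 26. With 2 libraries against 2 in each medium, 7 channel genes were called in all 3, among them Kcng4, Kcnh1, Kcnj6, Kcnk9 and Kcnma1. The share of all genes called in all 3 media is not given, so this count has no background. Kcnma1 differed by 1.81, 1.76 and 1.76 on the log2 scale in DHA, LA and BSA (adjusted p = 0.000121, 0.000368 and 0.000250), and Kcng4 by 5.37, 4.07 and 5.06 (adjusted p = 0.000461, 0.00256 and 0.000867). Kcnv2 differed by 1.252 in DHA (adjusted p = 0.000520), 0.15 in LA (adjusted p = 0.615) and 0.56 in BSA (adjusted p = 0.0368). The difference between steps was tested directly. With the filter on low counts, edgeR called 0 genes (0%) in any pair of media. For DHA minus LA, DHA minus BSA and LA minus BSA, 8, 8 and 2 of 79 channel genes had an unadjusted p under 0.05. Over all 20111 genes tested these counts were 1272, 443 and 420. For DHA minus LA, DESeq2 called 2 channel genes and edgeR with no filter called 4. Counts over all genes are not given for these 2 settings. For Kcnv2 the step in DHA minus that in LA was 1.102 (95% interval 0.66 to 1.54, unadjusted p = 0.000150, adjusted p = 0.493).

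With the filter on low counts, edgeR called a difference between fatty acid supplements in 0 potassium channel genes. In 12 comparisons of media, 9 in the deeper libraries and 3 in the shallower ones with kept or left out as a term, 0 of the channel genes tested passed over all genes, which is to be set against 0 to 3 genes called over the whole table. These were 0.00994% of genes for DHA against LA at day 32 with FGF1, 0.00497% for DHA against LA and for LA against BSA averaged over both states, 0.0149% for LA against BSA at day 32 with FGF1, and 0% for the others. The unadjusted p was under 0.05 for 0 to 11 of the channel genes, and for 252 to 1530 of all genes tested. For DHA against BSA at day 32 with FGF1 it was 11 of 79 channel genes, beside 546 of 20111 genes. With no filter 1 to 3 channel genes were called in 5 of the 12 comparisons, and counts over all genes are not given for that setting. At day 26 Kcnv2 was at 100 and 103 CPM in DHA, 153 and 156 CPM in LA and 126 and 140 CPM in BSA, so that both DHA libraries lay lowest. DHA minus LA came to −0.60 on the log2 scale (95% interval −0.91 to −0.29, unadjusted p = 0.00120, adjusted p = 1.00). At day 32 with FGF1 the order was turned round. Kcnv2 was at 225 and 259 CPM in DHA, 174 and 159 CPM in LA and 182 and 204 CPM in BSA, and DHA against LA was 0.50 (0.19 to 0.81, adjusted p = 0.374). Both DHA libraries were then the highest.

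**Figure D3:**
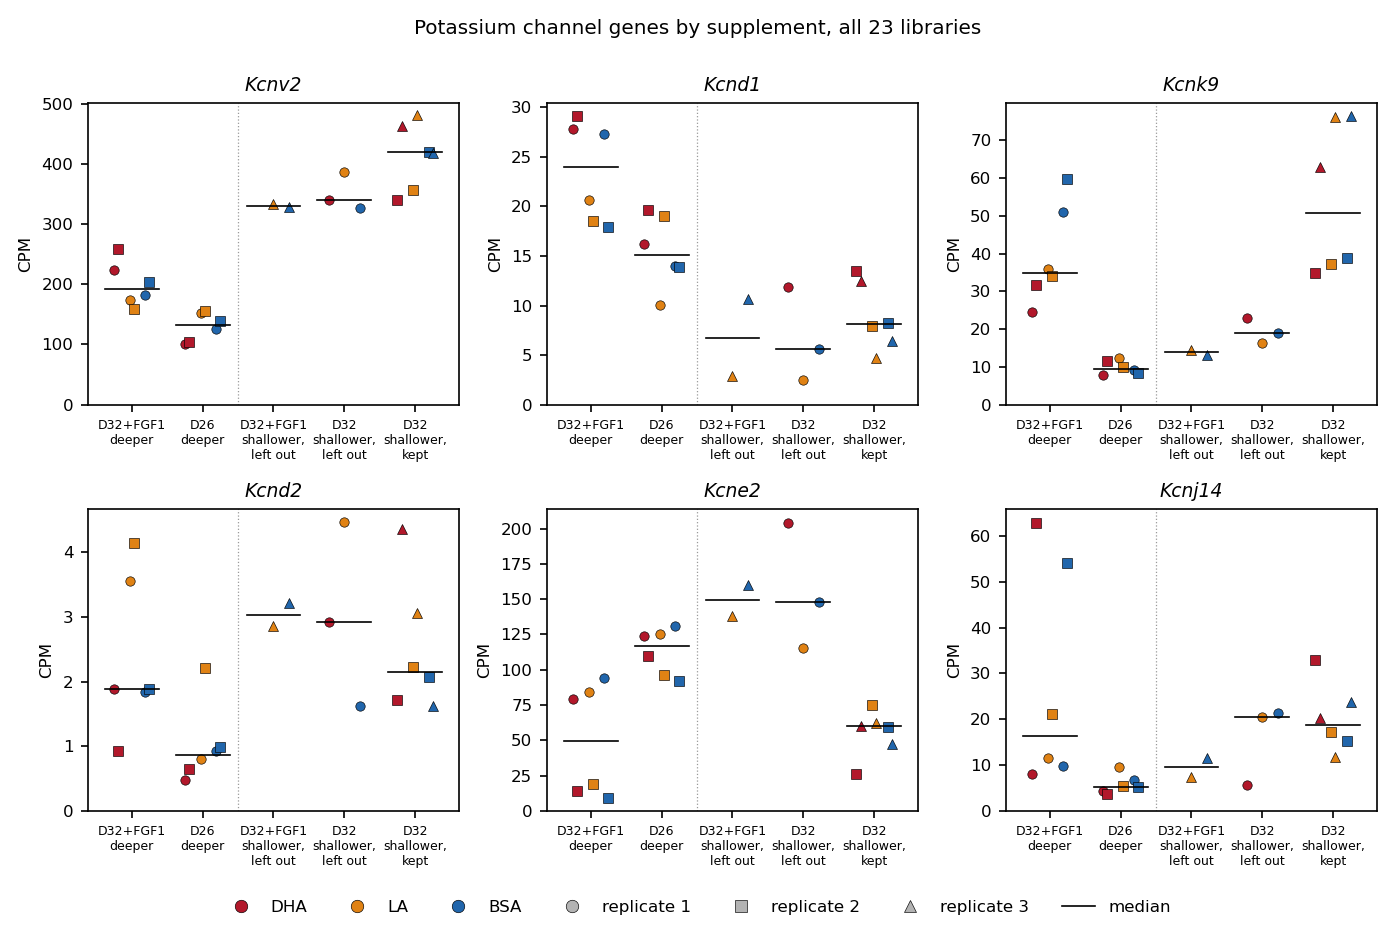
TMM-scaled CPM (linear axes) of 6 potassium channel genes in each of the 23 libraries, by day, FGF1 and library set, with colours for medium (DHA, LA, BSA), shapes for replicate number and a bar at the median. For Kcnv2 both DHA libraries lie lowest at day 26 and highest at day 32 with FGF1 within the deeper libraries.

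Kcnk9 was lower in DHA than in BSA at day 32 with FGF1, at 24.5 and 31.7 CPM in DHA against 51.0 and 59.6 CPM in BSA, with 35.9 and 34.0 CPM in LA (log2 difference of DHA against BSA −0.9996, 95% interval −1.45 to −0.55, adjusted p = 1.00). Averaged over day 26 and day 32 with FGF1, Kcnd2 was lower in DHA than in LA (−1.45, −2.21 to −0.69, adjusted p = 0.608). Among the shallower libraries of day 32, Kcnd1 gave the smallest p for DHA against LA (1.59, 0.72 to 2.47, adjusted p = 1.00). To each side, the 95% interval for a channel gene had a median reach of 0.75 to 0.76 on the log2 scale for the comparisons of 2 with 2 deeper libraries.

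FGF1 was compared within the 11 shallower libraries, where it varied only among the 5 that the authors left out (2 with FGF1 in LA and BSA, 3 without). Of 70 potassium channel genes tested, 0 were called by edgeR, and 0 of 19484 genes over the whole table (0%), while 1 channel gene and 372 genes had an unadjusted p under 0.05. Kcnv2 was at 334 CPM in LA with FGF1 and 328 CPM in BSA with FGF1, against 340, 387 and 326 CPM in DHA, LA and BSA without FGF1 (log2 difference −0.12, 95% interval −0.61 to 0.36). Kcnma1 was at 130 and 127 CPM against 138, 129 and 123 CPM (0.00, −0.45 to 0.46). Among the 3 genes of smallest p were Kcnq1, listed at 0 in both libraries with FGF1 and at 0, 2.87 and 0.0855 CPM in DHA, LA and BSA without FGF1, and Kcnj12 (−1.33, −2.70 to 0.04). The median interval reached 1.05 on the log2 scale to each side. The same test recovered 20% of 4-fold changes put into simulated libraries, against 93% for the comparison of day 32 with FGF1 and day 26.

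Day 32 without FGF1 was compared with day 26 over all 23 libraries, with the 3 library sets as a term. The day 32 libraries without FGF1 were all shallower and the day 26 libraries all deeper, so the set term rests on the 2 shallower FGF1 libraries. Of 81 potassium channel genes tested, 8 were called (7 higher, 1 lower), against 2.56% of 21124 genes (1.66% higher and 0.899% lower). Those higher included Kcng4 (5.40, adjusted p = 0.00422), Kcnk9 (2.64, adjusted p = 0.00506), Kcnj12 (2.42, adjusted p = 0.0189), Kcnj6 (1.85, adjusted p = 0.0105), Kcnma1 (1.77, SE 0.21, adjusted p = 0.000291) and Kcnh5 (1.42, adjusted p = 0.0452), and Kcnh8 was lower (−2.31, adjusted p = 0.0192). All 8 are among the 41 called with FGF1; both comparisons use the same day 26 libraries. Kcnma1 was at 140 to 190 CPM in the 6 kept shallower libraries and 123 to 138 CPM in the 3 left-out ones without FGF1, against 45.6 to 56.3 CPM at day 26.

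The count of 8 depended on single libraries. It was 1 without replicate 3 of BSA with FGF1, 3 without replicate 3 of LA with FGF1, 5 without replicate 1 of BSA without FGF1 and 14 without replicate 2 of DHA without FGF1. Kcnma1 was called in all 23 of these fits, Kcng4 and Kcnk9 in 22, Kcnj6 in 21, Kcnh8 in 20, Kcnj12 in 19 and Kcnh5 in 9. Without the set term 53 channel genes were called (60.9% of all genes tested), and Kcnj12 then differed by −0.080, so that its direction rests on the term.

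Many channel genes differed between the library sets. For LA with FGF1 and BSA with FGF1, the shallower replicate 3 can be set beside the 2 deeper libraries of its own group. Both replicates 3 are among the libraries that the authors left out, so kept shallower libraries do not enter these ratios. Of the 48 channel genes averaging 5 CPM or more in the deeper libraries, 5 were over 4 times lower in both shallower libraries. The share of all genes past this limit is not given, nor is that for the higher limit below, so these counts have no background. The 5 include Kcng4, Kcnh2, Kcnh6 and Kcnt1. Against the mean of its deeper libraries, 1 gene (Kcne2) was over 2 times higher in both. Its deeper libraries were split, at 94.2 and 84.1 CPM in replicates 1 of BSA and LA and 9.46 and 19.2 CPM in replicates 2. The shallower replicates 3 had 160 and 138 CPM. Kept shallower libraries without FGF1 were lower, with mean Kcne2 of 43.0, 68.7 and 53.4 CPM in DHA, LA and BSA. Kcnh2 was at 1.65 and 4.02 CPM in the shallower libraries of LA and BSA with FGF1 against 46.6 to 50.7 CPM in the deeper ones, and over all 23 libraries at 1.08 to 12.1 CPM in the shallower against 34.8 to 63.9 CPM in the deeper set. Kcnv2 was higher instead, at 334 and 328 CPM against 159 to 204 CPM. The mean log2 ratio of shallower over deeper fell with GC content across the genes (Pearson r = −0.78 over 48 genes, which share these 6 libraries). Its median was −2.06 over the 16 genes of highest GC (55.0% to 61.5%), −0.51 over the next 16 and 0.21 over the 16 of lowest GC (39.6% to 48.3%). Levels of GC-rich channel genes such as Kcnh2 and Kcng4 are therefore not comparable between the sets.

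**Figure D4:**
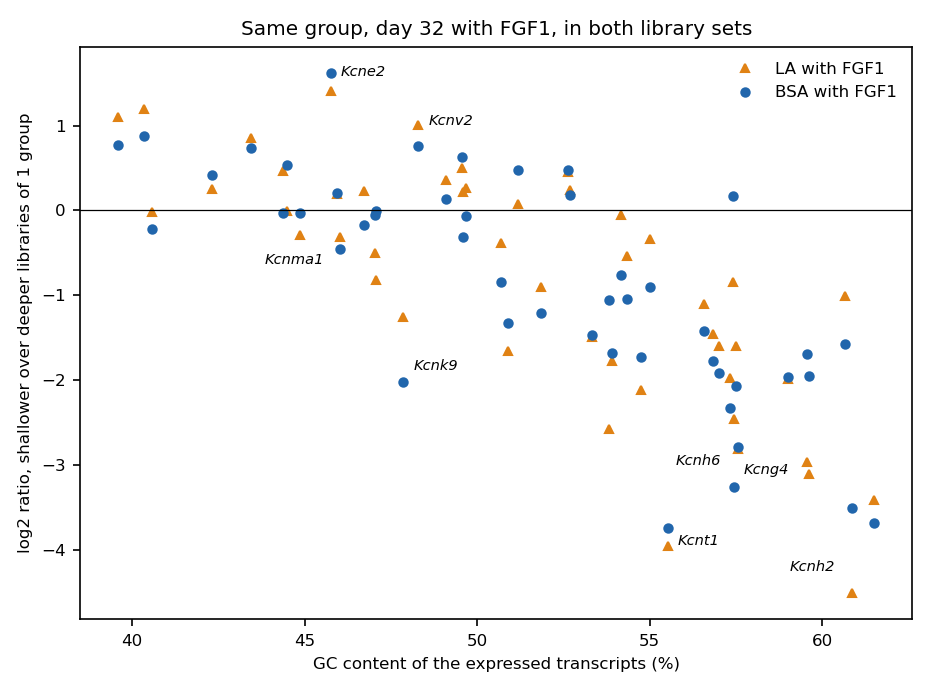
Log2 ratio of CPM in the shallower library over the mean of the deeper libraries of the same group (y axis) against the GC content of the expressed transcripts in percent (x axis), for 48 potassium channel genes in LA with FGF1 and BSA with FGF1 at day 32. Points above 55.0% GC lie mostly below 0, with Kcnh2 and Kcnt1 at the bottom and Kcne2 at the top. For Kcne2 the deeper libraries were split by replicate number.

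Transcripts were compared for the 38 channel genes with at least 2 transcripts and 60 or more reads in every deeper library. Of their 224 transcripts, 8 had shares of their gene that did not overlap between day 32 with FGF1 and day 26, which is 3.57% against 1.45% of the 70107 transcripts of all genes that met the same limits. Of these 8, 6 belonged to Kcnma1; the shares were not tested. Kcnma1-205, the 12094-base transcript, held 44.3%, 58.0% and 65.8% (lowest, median and highest) of the Kcnma1 count at day 32 with FGF1 against 74.2%, 77.3% and 79.2% at day 26. In absolute terms it was not lower, at a median of 70.4 CPM against 41.8 CPM. Kcnma1-206 held 6.11% to 8.02% against 0% to 3.47%, Kcnma1-207 4.07% to 10.1% against 1.47% to 3.103%, and Kcnma1-218 2.61% to 5.18% with FGF1, while it was listed at 0 in all 6 libraries of day 26. Kcnma1-217 held 1.503% to 4.36% against 0% to 1.22%, and Kcnma1-222 0.925% to 2.05% against 0.0977% to 0.483%. The shallower libraries followed this in part. There Kcnma1-217 held 5.44% to 8.48% with FGF1 and 2.98% to 8.32% without, above all of day 26. By contrast, Kcnma1-205 held 84.6% and 84.8% in LA and BSA with FGF1 and 69.4% to 92.0% without. Kcnma1-218 reached at most 0.889%. In LA and BSA with FGF1, Kcnma1-222 held 0.869% and 1.82%, above all of day 26. In the shallower libraries without FGF1 it held 0.232% to 1.06%, with overlap with day 26. In the shallower libraries of LA and BSA with FGF1, Kcnma1-206 held 0.000438% and 0.607%, within the range of day 26. Kcnma1-207 held 0.309% and 0% in these libraries, below all of day 26. These are estimated counts divided by kallisto among transcripts that overlap, so shares of single transcripts are less certain than the gene's total.

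**Figure D5:**
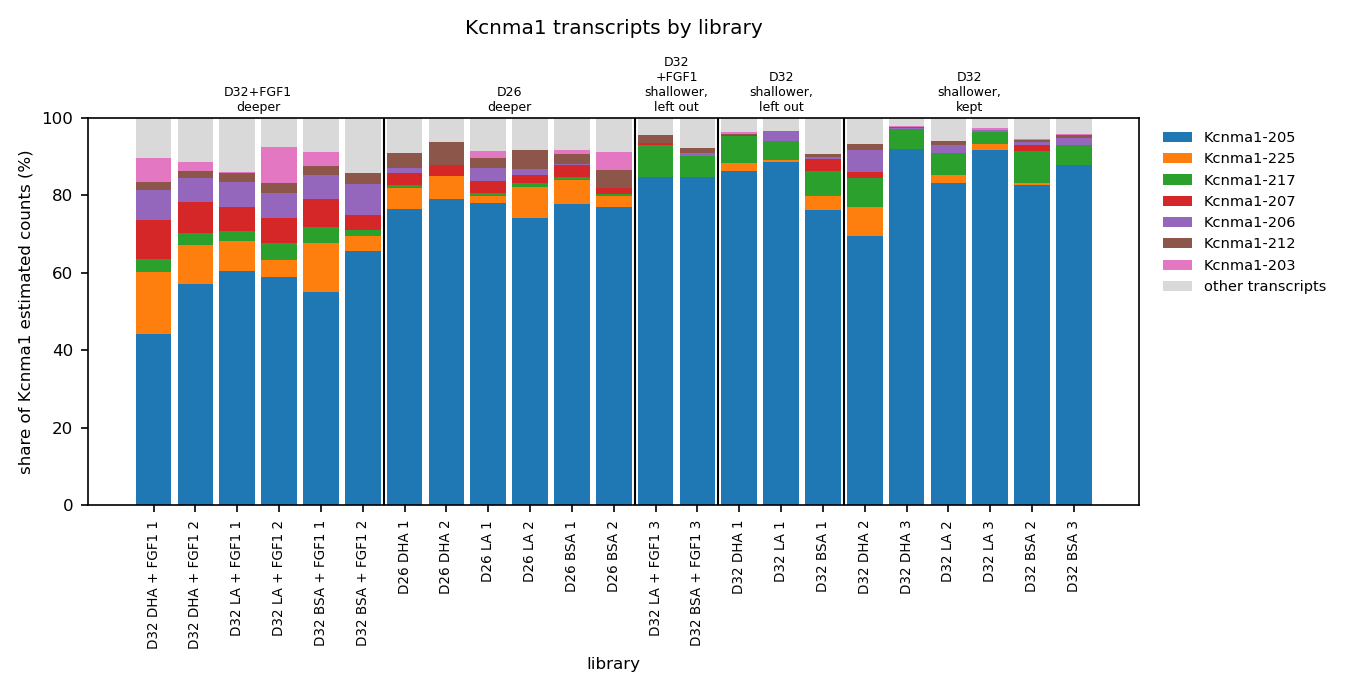
Share of the Kcnma1 estimated counts (percent, y axis) by transcript in each of the 23 libraries (x axis), grouped by day, FGF1 and library set; the 7 most abundant transcripts have their own colour and the others are grey. Kcnma1-205 (blue) holds 44.3% to 65.8% in the deeper libraries of day 32 with FGF1 and 74.2% to 79.2% at day 26.

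Over the 12 deeper libraries, the channel genes whose log2 CPM followed that of Kcnv2 most closely included Kcnab2 (Pearson r = 0.89), Kcnk3 (0.85), Kcng4 (0.84) and Kcnh6 (0.83), and those that ran most opposite were Kcnt2 (−0.89), Kcnk5 (−0.88) and Kcnh4 (−0.86). Of all other genes, Snrk (0.98), Cdh2, Ano2, Klhl18 and Bbs1 (0.97 each) were closest. These values describe 12 libraries that share the 2 states compared above.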

How the data were processed

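Build GRCm38.p6 and the tools kallisto 0.45.0, edgeR and Trimmomatic 0.36 are named in the submitters' processing notes; their order is not given in the sources used here. The authors deposited estimated counts (expected counts, not whole numbers) per gene and per transcript for 23 libraries. They also deposited normalized CPM, a signal scaled by library, for 18 libraries; it gave gene names, positions and the library sets. Totals of both count tables were equal, but a gene's count was 0.864 to 2.40 times the sum of its transcripts among the channel genes.

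Counts were rounded, filtered with filterByExpr, scaled by TMM and tested with edgeR 4.0.16 (quasi-likelihood; Benjamini-Hochberg over all genes tested; adjusted p under 0.05 called) in R 4.3.3. Standard errors and 95% intervals follow from the F statistic and are approximate. Levels are TMM-scaled CPM, also per kilobase of the expressed transcripts. There were at most 2 libraries per group and set. The p-values set a difference against the spread between libraries.

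Named genes were the largest called differences per comparison (or the 3 smallest p), fixed channel genes and the most abundant gene of each larger subfamily, 47 in all; others are named to account for every gene. Members and lists were chosen with earlier results of these data known. The step test was tested on simulated data with 100 genes per fold: for day 32 with FGF1 against day 26, 59% of 2-fold and 93% of 4-fold changes were found (20111 genes); for FGF1, 0% and 20% (19484 genes); for day 32 without FGF1, 5% and 38% (21124 genes). Replicate numbers were taken to pair DHA and LA at day 32 without FGF1, because deviations of same-numbered libraries correlated there (r = 0.23, 0.55 and 0.35); replicate 1 of both is a left-out library, so number and library set cannot be told apart for it. Alternatives were DESeq2 1.42.0, limma 3.58.1 (voom), RLE scaling, no filter, replicate blocks, other set terms and leaving out each library. The block within each state was added after the data were seen. Some genes are not reported here by name.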

Additional observations from a re-analysis of the deposited data

Results flagged for a closer look

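In 129 groups of 4 to 10 libraries of 1 day, FGF1 state and set, 1 library stood apart from the others in 10, where chance gives about 1 in 20. At day 32 with FGF1 in the deeper libraries, Kcnh2 was at 34.8 CPM in DHA replicate 2, against 46.6 to 50.7 CPM in the others. There BSA replicate 2 was high for Kcnh1 (6.91 CPM, others 4.86 to 5.42) and for Kcnip2 (14.2 CPM, others 8.89 to 10.6). At day 32 without FGF1 in the kept shallower libraries, Kcnh2 was at 12.1 CPM in DHA replicate 2 (others 2.18 to 4.53) and Kcnk10 at 6.42 CPM in BSA replicate 3 (others 3.84 to 4.44). At day 26, DHA replicate 2 was high for Kcnmb2 (2.14 CPM, others 0.262 to 0.658) and for Kcnn1 (13.1 CPM, others 6.39 to 7.89), and DHA replicate 1 was low for Kcnk3 (3.39 CPM, others 7.39 to 8.42). There BSA replicate 2 was high for Kcnb2 (21.03 CPM, others 11.8 to 15.1) and LA replicate 2 for Kcnd2 (2.21 CPM, others 0.484 to 0.996). Groups of different genes share libraries and are not independent.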

How the results depend on the processing

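For day 32 with FGF1 against day 26, the count of 41 channel genes was 27 in all 23 libraries with a set term and 35 to 40 with 1 library left out. In DHA (21) limma voom gave 13 and leaving out libraries 9 to 19; in LA (10) DESeq2 gave 18, no filter 24 and leaving out 4 to 12; in BSA (16) no filter gave 28, the replicate block within each state 25 and leaving out 3 to 19. The step in DHA minus that in LA had 2 calls by DESeq2 and 4 with no filter. With no filter, DHA against LA gave 1 call at day 26, 3 at day 32 with FGF1 and 1 averaged, DHA against BSA at day 32 with FGF1 gave 2, and LA against BSA there gave 1. Leaving out any 1 library kept 0 calls for every medium comparison and for FGF1. Counts over all genes under the settings of this paragraph are not given.

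For day 32 without FGF1 (8 calls), 2 depth sets as the term gave 19, DESeq2 17, limma voom 13, no filter 14, no set term 53, and leaving out 1 library 1 to 14. Without the set term 6 named genes reversed: Kcnc1 (−1.08), Kcnd1 (−1.03), Kcnh2 (−3.64), Kcnj12 (−0.080), Kcnmb4 (−0.74) and Kcnq5 (1.94); day and set then move together. The causes of the other moves were not tested. Kv pore genes held 56.7% of the summed channel CPM at day 32 with FGF1 but 40.9% per kilobase. Over the named genes and these settings, 2830 values kept direction and side of the threshold, 66 passed it newly, 65 lost it and 6 reversed.

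Same-numbered libraries of day 32 with FGF1 and day 26 correlated at −0.09, 0.06 and 0.11, so the numbers were not taken to pair them. Across media (DHA and LA, DHA and BSA, LA and BSA) they correlated at 0.16, 0.35 and 0.22 at day 32 with FGF1 and at −0.12, −0.01 and 0.22 at day 26, with 2 pairs each. With the replicate block, day 32 with FGF1 against day 26 gave 41 calls and DHA against LA in the shallower libraries 0, as without it. No paired analysis was possible for FGF1 and for day 32 without FGF1 because replicate numbers move with the library sets there. The 13 genes that did not pass the filter in the deeper libraries reached at most 1.76 CPM and were not tested there. Of these, Kcne4 and Kcnv1 passed it in the shallower libraries and were tested in them.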
